A study of Arabidopsis thaliana with 18 samples.

Results

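Jasmonate turnover was followed here through 10 genes of Arabidopsis thaliana, chosen by gene identifier for the enzymes they encode. They were the cytochromes P450 CYP94B1 (AT5G63450), CYP94B3 (AT3G48520) and CYP94C1 (AT2G27690), the dioxygenases JOX1 (AT3G11180), JOX2 (AT5G05600), JOX3 (AT3G55970) and JOX4 (AT2G38240), the sulfotransferase ST2A (AT5G07010), and the amidohydrolases IAR3 (AT1G51760) and ILL6 (AT1G44350). All 10 were among the 32678 genes of the deposited count files. Of these 10, 8 passed the filter on low counts that left 20622 genes for testing, and CYP94B3 and JOX1 did not.

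Jasmonates are lipid-derived hormones that plants make after wounding, attack or oxidative stress. The active form, jasmonoyl-isoleucine (JA-Ile), brings JAZ repressor proteins to the receptor COI1 for degradation and so releases MYC transcription factors. Turnover enzymes lower JA-Ile or its precursor: CYP94 cytochromes P450 oxidise JA-Ile, JOX dioxygenases hydroxylate jasmonic acid, amidohydrolases such as IAR3 and ILL6 split jasmonoyl-amino acid conjugates, and the sulfotransferase ST2A sulfates hydroxyjasmonic acid.

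Whole rosettes of 3-week-old plants of 3 genotypes were sampled as controls and after 2 h in 350 ppb ozone. Col-0 is the common laboratory accession. Cvi-0 is an accession whose ozone sensitivity was introgressed into Col-0 to give the near-isogenic line Col-S. The 6 groups were therefore Col-0 control, Col-0 ozone, Cvi-0 control, Cvi-0 ozone, Col-S control and Col-S ozone, each with 3 libraries described as biological replicates. Each was made from 10 to 15 pooled rosettes, and the sensitivity is represented by 1 accession and 1 line. Total counts ran from 14905841 to 26171613 per library over the 18 libraries, so that 3 counts corresponded to 0.109 to 0.207 CPM, the unit used below for counts divided by the library size after edgeR's TMM scaling. The 4 leaf markers summed to between 42348 and 50152 CPM in controls and between 16195 and 39407 CPM after ozone, and all 4 fell in every genotype; their part in the members' values was not tested. The 4 root markers summed to at most 2.18 CPM and the 4 flower and shoot apex markers to at most 2.65 CPM, with CASP1, AP1 or AP3 at 0 in some groups. In bulk RNA, fewer cells of a type and less RNA per cell cannot be told apart.

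Ozone raised all 8 tested turnover genes in each genotype. IAR3, CYP94C1, JOX2, JOX3, JOX4 and ILL6 reached at least 9-fold the control mean in every genotype. CYP94B1 reached 6.25-fold in Col-0, 4.05-fold in Cvi-0 and 6.73-fold in Col-S, and ST2A 3.90-fold, 11.5-fold and 4.25-fold. In Col-0 all 8 passed the test (edgeR quasi-likelihood test, Benjamini-Hochberg adjusted p below 0.05), where 29.7% of all tested genes were called higher. The same 8 of 8 were called higher in Cvi-0, against 34.4% of all tested genes, and in Col-S, against 34.3%. The ozone and control libraries did not overlap for 8 of the 8 genes in each genotype, with the ozone libraries higher, and over all tested genes the groups did not overlap, in either direction, for 63.4% in Col-0, 73.7% in Cvi-0 and 70.8% in Col-S. The median log2 fold change of the 8 genes was 3.58 in Col-0, 5.13 in Cvi-0 and 4.53 in Col-S, and that of all tested genes was -0.02, -0.05 and -0.03. JOX3 and JOX4 had low control counts and passed the filter on low counts through their ozone libraries, while CYP94B3 and JOX1 failed it. The counts of 8 of 8 and the medians are therefore not free of that filter. The members were also chosen with earlier results of these data known.

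**Figure D1:**
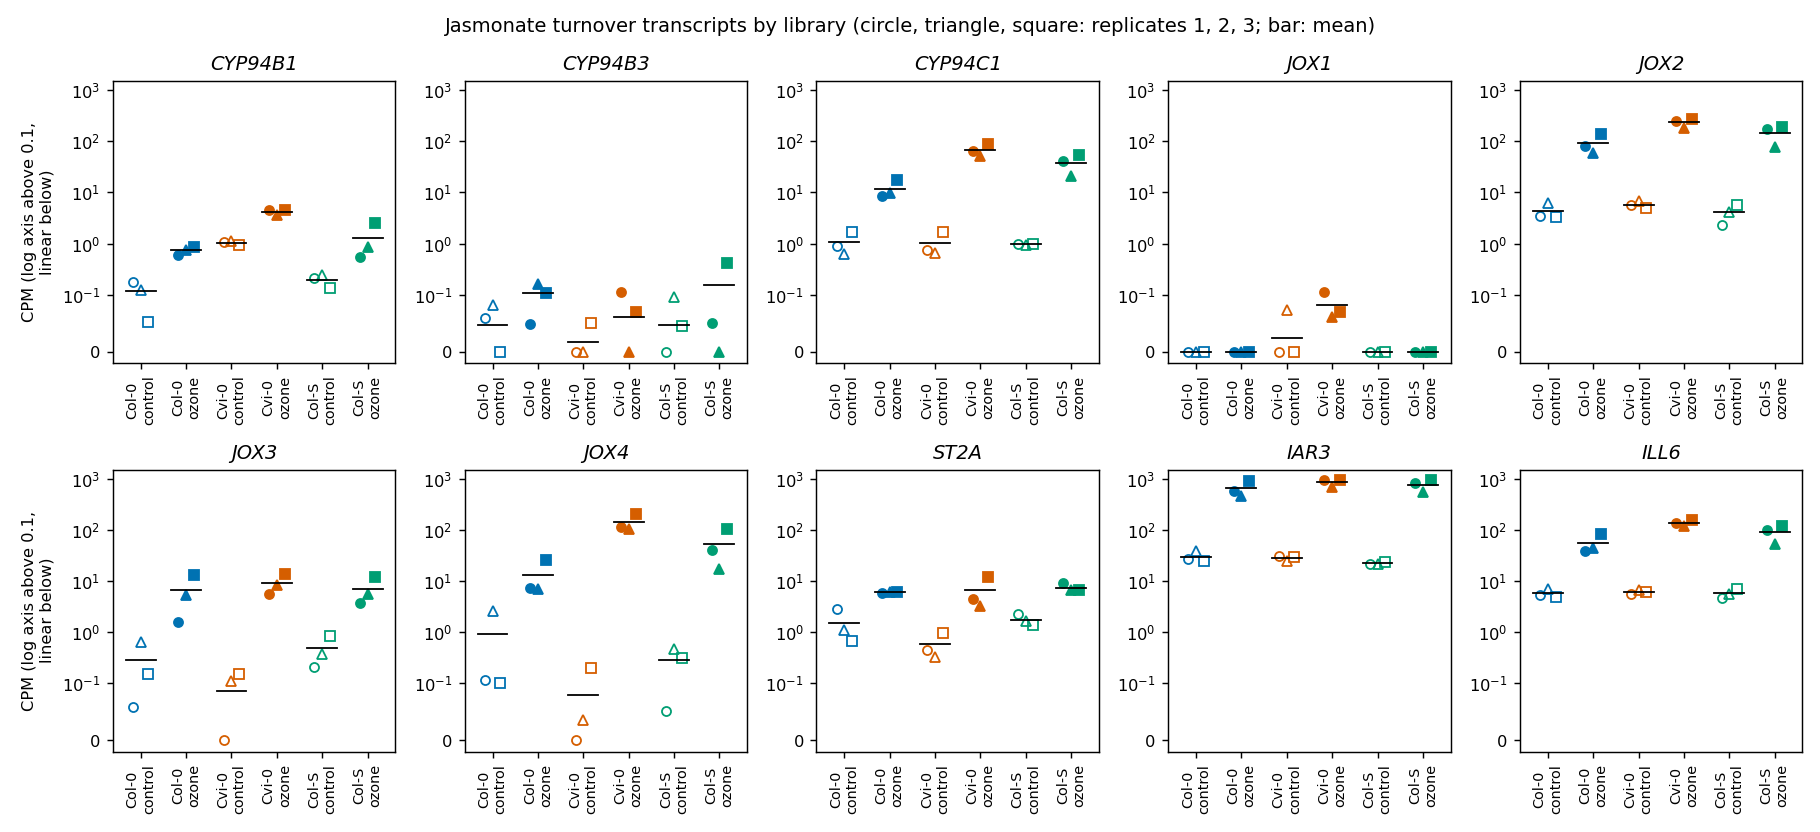
CPM of the 10 turnover genes in each of the 18 libraries, by genotype and treatment; circles, triangles and squares are replicates 1, 2 and 3, open for control and filled for ozone, bars are group means, and the axis is logarithmic above 0.1 CPM and linear below. The ozone libraries lie above the control libraries of the same genotype for all genes other than CYP94B3 and JOX1, which stay near 0.

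**Figure D2:**
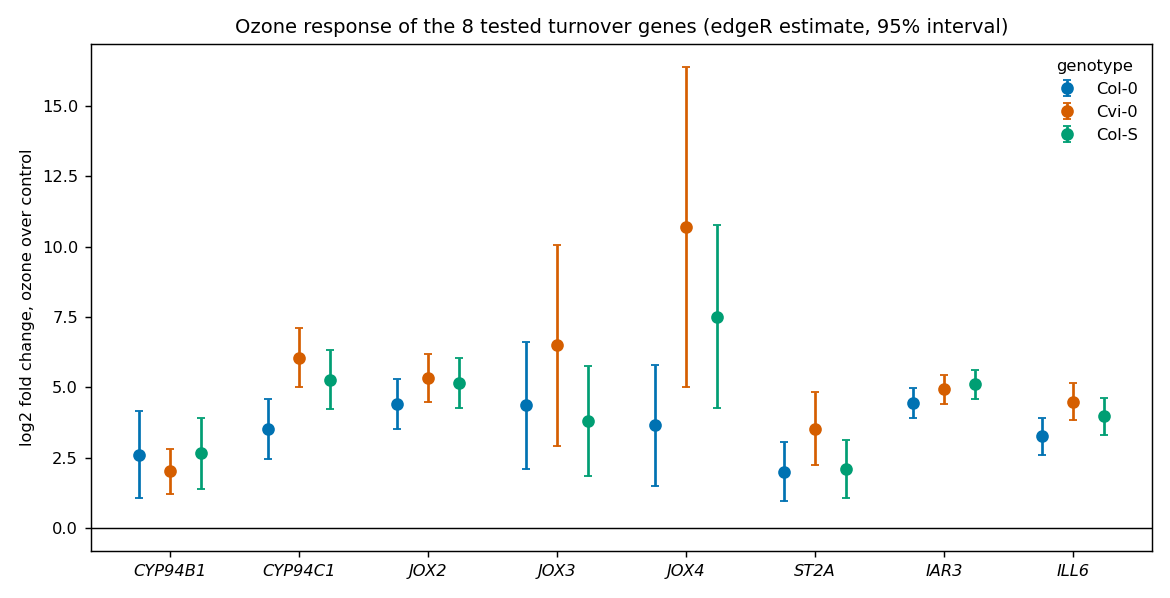
Log2 fold change of ozone over control for the 8 tested genes in Col-0, Cvi-0 and Col-S, with 3 libraries in each group. Points are edgeR estimates. The 95% intervals were computed from the fitted model, apart from the test that gave the p-values. All intervals lie above 0, and that of JOX4 in Cvi-0 runs from 4.99 to 16.38.

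The CYP94 enzymes act on JA-Ile itself. CYP94C1, at chr2:11809306-11811215 on the plus strand (TAIR10), carries the oxidation through to carboxy-JA-Ile. In controls it stood at 0.883, 0.614 and 1.65 CPM in the 3 Col-0 libraries, at 0.764, 0.655 and 1.68 CPM in Cvi-0, and at 0.989, 0.956 and 0.999 CPM in Col-S. The Col-S controls lay within the ranges of the Col-0 and Cvi-0 controls, which overlapped.

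After ozone CYP94C1 measured 8.64, 9.79 and 17.2 CPM in Col-0, 63.7, 50.9 and 88.6 CPM in Cvi-0, and 40.9, 20.9 and 52.6 CPM in Col-S. All Cvi-0 and Col-S libraries were above the highest Col-0 library, and the Cvi-0 and Col-S ranges overlapped. The mean ratio of ozone to control was 11.3 in Col-0, 65.6 in Cvi-0 and 38.9 in Col-S. The log2 fold changes were 3.51 (SE 0.49, n = 3 libraries a group) in Col-0, 6.05 (SE 0.48) in Cvi-0 and 5.27 (SE 0.49) in Col-S, with edgeR adjusted p-values of 9.2e-06, 1.2e-08 and 6.1e-08.

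CYP94B1, at chr5:25408895-25410573 on the minus strand, hydroxylates JA-Ile, and it was the member that edgeR called between control groups. Its control levels were 1.08, 1.13 and 0.916 CPM in Cvi-0, against 0.177, 0.123 and 0.052 CPM in Col-0 and 0.208, 0.239 and 0.136 CPM in Col-S. Every Cvi-0 control library was above every Col-0 and Col-S control library. Over the 3 libraries the controls held 66 counts in Cvi-0, 7 in Col-0 and 12 in Col-S. The Col-0 and Col-S control levels, and the ratios and differences taken against them, rest on these few counts. The Cvi-0 control mean of 1.04 ± 0.111 CPM (SD, n = 3) exceeded the Col-0 ozone mean of 0.731 ± 0.139 CPM. Ozone took CYP94B1 to 4.56, 3.61 and 4.48 CPM in Cvi-0, to 0.589, 0.737 and 0.868 CPM in Col-0, and to 0.542, 0.866 and 2.52 CPM in Col-S. The replicate 3 library of Col-S stood apart from the other Col-S libraries. The log2 fold changes were 2.60 (SE 0.71) in Col-0, 2.01 (SE 0.37) in Cvi-0 and 2.65 (SE 0.58) in Col-S.

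CYP94B3, at chr3:17974977-17976670 on the minus strand, is a JA-Ile hydroxylase whose protein shared 76.1% of aligned residues with CYP94B1. It was barely detected, with 3 counts over the Col-0 controls and 7 over the Col-0 ozone libraries, while Cvi-0 had 1 count in controls and 3 after ozone and Col-S had 3 and 7. The ratio of ozone to control was 2.24 in Col-0, with an exact 95% interval of 0.512 to 13.4, and 2.60 in Col-S, with an interval of 0.594 to 15.6. No change was detectable at this depth, and these intervals cover counting error only.

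The JOX enzymes act a step earlier, on jasmonic acid. JOX2, at chr5:1672120-1674739 on the plus strand, was the leading JOX transcript in every control library. Its controls ranged from 2.34 to 6.66 CPM over all genotypes. After ozone it reached 81.8, 57.6 and 137 CPM in Col-0, 249, 177 and 276 CPM in Cvi-0, and 173, 77.2 and 186 CPM in Col-S. The Cvi-0 libraries were all above the Col-0 libraries, while the Col-S libraries overlapped both. Log2 fold changes were 4.40 (SE 0.41) in Col-0, 5.34 (SE 0.39) in Cvi-0 and 5.15 (SE 0.41) in Col-S.

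JOX4, at chr2:16012535-16014753 on the minus strand, ran from 0 to 207 CPM over the libraries. Its controls gave 0.118, 2.58 and 0.103 CPM in Col-0, 0, 0.036 and 0.204 CPM in Cvi-0, and 0.052, 0.478 and 0.318 CPM in Col-S. The replicate 2 library of Col-0 thus stood far above the other control libraries, and the Cvi-0 controls held 5 counts in all. After ozone JOX4 measured 7.41, 7.00 and 25.7 CPM in Col-0, 116, 103 and 207 CPM in Cvi-0, and 40.7, 17.1 and 104 CPM in Col-S. Cvi-0 was above Col-0 in every library, with means of 142 ± 56.3 CPM against 13.4 ± 10.7 CPM (SD, n = 3). The log2 fold changes were 3.65 (SE 0.98, edgeR adjusted p = 0.0034) in Col-0, 10.69 (SE 2.61, adjusted p = 3.1e-06) in Cvi-0 and 7.51 (SE 1.49, adjusted p = 2.5e-05) in Col-S. Without the Col-0 control replicate 2 the Col-0 value was 6.83 (adjusted p = 7e-04), and the size in Cvi-0 rests on the 5 control counts.

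JOX3, at chr3:20766735-20769324 on the minus strand, rose from low control levels to similar means in the 3 genotypes. Control libraries held 20 counts in all in Col-0, 6 in Cvi-0 and 31 in Col-S. Ozone libraries gave 1.62, 5.32 and 13.3 CPM in Col-0, 5.70, 8.25 and 13.4 CPM in Cvi-0, and 3.65, 5.48 and 12.1 CPM in Col-S, so the ranges overlapped throughout. JOX1, at chr3:3504204-3507113 on the plus strand, is the JOX enzyme closest to JOX2, with 76.7% identical aligned residues. It had no counts in any of the 12 Col-0 and Col-S libraries, in which 3 counts would have been 0.123 to 0.204 CPM. In Cvi-0 it held 2 counts in controls and 4 after ozone, a ratio of 2.58 with an exact 95% interval of 0.370 to 28.5.

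Levels of different genes were compared per kb of exon. JOX4 made up 40.9%, 45.7% and 51.9% of the summed JOX level in the Cvi-0 ozone libraries, computed after the values had been seen. In the Col-0 ozone libraries its share was 11.9%, 14.4% and 20.5%, and in Col-S 26.0%, 23.8% and 44.3%. The 3 genotypes did not overlap between Cvi-0 and Col-0 or between Col-S and Col-0, and Col-S replicate 3 lay within the Cvi-0 range. JOX2 held most of the remainder, at 51.6 ± 6.00% in Cvi-0, 78.6 ± 7.24% in Col-0 and 65.0 ± 11.3% in Col-S (SD, n = 3). These shares are a description and were given no test.

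**Figure D3:**
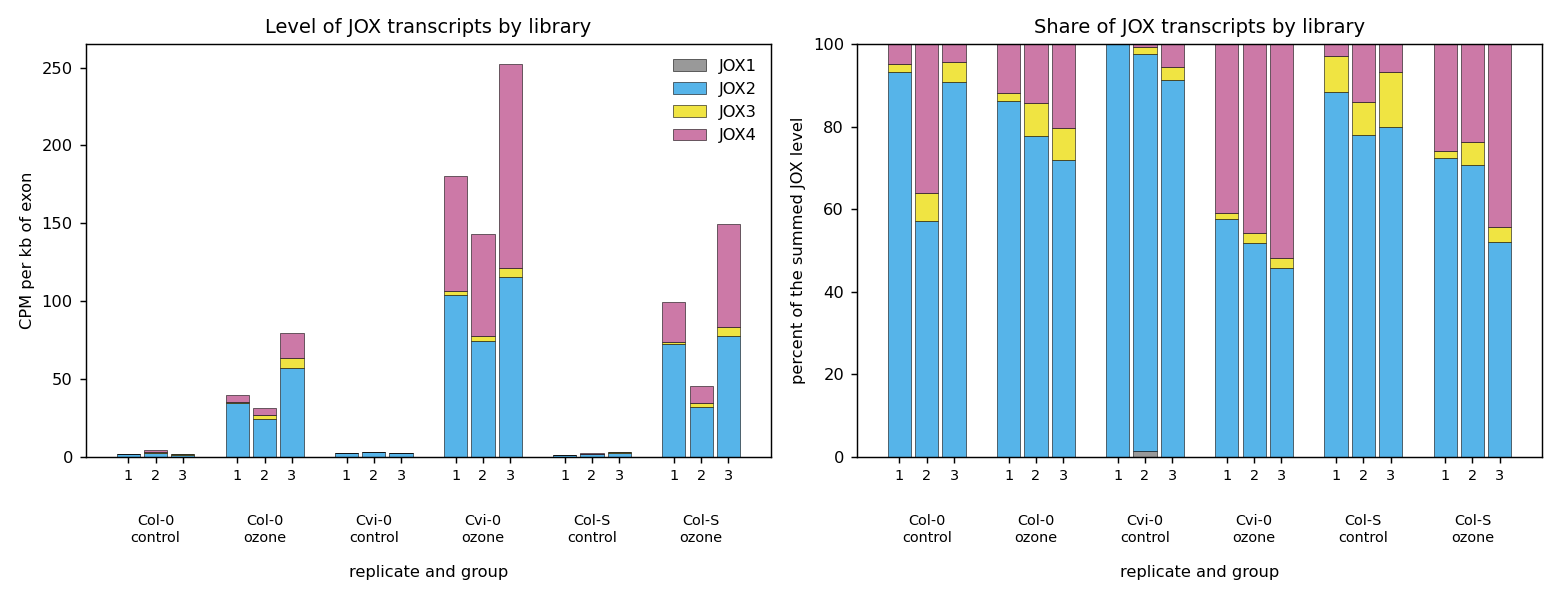
Levels of JOX1 to JOX4 in each library as stacked CPM per kb of exon (left) and as percent of their sum (right), for replicates 1, 2 and 3 of each of the 6 groups. JOX4 takes 40.9% to 51.9% of the sum in Cvi-0 after ozone and 11.9% to 20.5% in Col-0.

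The amidohydrolases act on jasmonoyl-amino acid conjugates. IAR3, at chr1:19199419-19201642 on the plus strand, cleaves JA-Ile and its hydroxylated form, and also releases auxin from its conjugates. Its controls lay between 21.6 and 38.2 CPM. After ozone it reached 589, 462 and 888 CPM in Col-0, 938, 686 and 963 CPM in Cvi-0, and 829, 540 and 944 CPM in Col-S, with overlapping ranges. The log2 fold changes of 4.44, 4.92 and 5.10 had an SE of 0.24 each, the smallest among the members. Per kb of exon, the ozone level of IAR3 was 356 ± 121 CPM per kb in Col-0, 475 ± 84.1 in Cvi-0 and 424 ± 114 in Col-S (SD, n = 3), above the other members on that scale.

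ILL6, at chr1:16834210-16838286 on the minus strand, is the second amidohydrolase with this activity, and its protein shared 50.6% of aligned residues with IAR3. Its control libraries covered 4.73 to 7.08 CPM. Ozone raised it to 39.2, 45.1 and 84.1 CPM in Col-0, 136, 119 and 153 CPM in Cvi-0, and 99.1, 53.4 and 117 CPM in Col-S. Cvi-0 was above Col-0 in every library and Col-S overlapped Col-0. The log2 fold changes were 3.26 (SE 0.30) in Col-0, 4.48 (SE 0.30) in Cvi-0 and 3.96 (SE 0.30) in Col-S.

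ST2A, at chr5:2174678-2176106 on the minus strand, puts a sulfate on hydroxyjasmonic acid and so acts after the JOX step. It measured 2.83, 1.10 and 0.671 CPM in Col-0 controls, 0.446, 0.327 and 0.967 CPM in Cvi-0 controls, and 2.24, 1.63 and 1.41 CPM in Col-S controls. After ozone the means drew level at 5.98 ± 0.172 CPM in Col-0, 6.64 ± 4.73 CPM in Cvi-0 and 7.47 ± 1.35 CPM in Col-S (SD, n = 3). The spread in Cvi-0 came from replicate 3, at 12.1 CPM beside 4.56 and 3.31 CPM. The log2 fold changes were 2.00 (SE 0.49), 3.53 (SE 0.60) and 2.09 (SE 0.47). ST2B, whose protein was 86.7% identical to ST2A, stood at 8.59 ± 0.875 CPM in Col-0 controls and at 0.067 ± 0.033 CPM in Cvi-0 controls. The longest run that the coding sequences of ST2A and ST2B shared was 53 bases, and the sources used here do not say how reads fitting both were counted.

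The genotypes were then compared directly after ozone. Cvi-0 was above Col-0 for 5 of the 8 tested genes, where 24.5% of all tested genes were called higher and none of the 8 was called lower. The log2 differences were 2.52 (SE 0.39) for CYP94B1, 2.52 (SE 0.34) for CYP94C1, 3.42 (SE 0.68) for JOX4, 1.35 (SE 0.36) for JOX2 and 1.28 (SE 0.28) for ILL6, with edgeR adjusted p-values from 3.5e-05 to 0.0071. IAR3, JOX3 and ST2A were not called, at 0.42, 0.44 and 0.14, with 95% intervals of -0.10 to 0.93, -0.88 to 1.76 and -0.79 to 1.07.

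Col-S was above Col-0 after ozone for CYP94C1, by 1.69 on the log2 scale (SE 0.34, edgeR adjusted p = 0.0044), which was 1 of the 8 genes where 10.1% of all tested genes were called higher. JOX4 differed by 2.02 (SE 0.69, adjusted p = 0.0696). With the replicate number as a block it was called as well, at 1.99 (SE 0.53, adjusted p = 0.0175), which made 2 genes. The block also raised the count of all tested genes called higher, from 2081 to 2673. Col-S was below Cvi-0 for CYP94B1, by a log2 difference of -1.75 (SE 0.36, adjusted p = 0.0014), where 13.7% of all tested genes were called lower. With the replicate block CYP94C1, at -0.87 (adjusted p = 4.3e-04), and JOX4, at -1.59 (adjusted p = 0.0267), were also below Cvi-0, which made 3 genes. Over all tested genes the count called lower went from 2828 to 3590 with the block.

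Whether the ozone response itself differed between genotypes was tested as an interaction. These comparisons share libraries with the ones above. The response in Cvi-0 was larger than in Col-0 for CYP94C1, by 2.54 on the log2 scale (SE 0.69, edgeR adjusted p = 0.0173), and for JOX4, by 7.04 (SE 2.79, adjusted p = 0.0182). That was 2 of the 8 genes, where 11.0% of all tested genes were called larger. Both calls rested on single Col-0 control libraries: without replicate 2 the JOX4 difference was 3.86 (adjusted p = 0.537), and without replicate 3 that of CYP94C1 was 2.04 (adjusted p = 0.0915). ILL6 differed by 1.22 (SE 0.43, adjusted p = 0.0537), and it was called with the replicate block, at 1.27 (adjusted p = 0.0249), by DESeq2 (adjusted p = 0.0148), with DESeq2 size factors (adjusted p = 0.0494) and in a fit of the compared groups alone (adjusted p = 0.0328).

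None of the 8 genes was called for a different response in Col-S than in Col-0 by edgeR, where 2.71% of all tested genes were called larger and 0.291% smaller. CYP94C1, at 1.75 (95% interval 0.25 to 3.26, adjusted p = 0.202), and JOX4, at 3.86 (-0.03 to 7.75, adjusted p = 0.236), were the 2 genes with an unadjusted p below 0.05. The JOX4 interval includes 0 because intervals were computed apart from the test that gave the p-values. DESeq2 called 1 gene, CYP94C1. With the replicate block edgeR called CYP94C1 as well, at 1.72 (adjusted p = 0.0149). Of all tested genes 558 were called larger by edgeR without the block, 1001 with it and 1124 by DESeq2. Between Col-S and Cvi-0 none was called by edgeR, 0 had an unadjusted p below 0.05 and DESeq2 called 0, where 4.84% of all tested genes were called either way. A value that misses the threshold does not show that the responses were alike: the interval for JOX4 ran from -9.73 to 3.37.

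Before ozone edgeR called 1 tested member between genotypes. CYP94B1 was higher in Cvi-0 than in Col-0 controls by a log2 difference of 3.11 (SE 0.70, edgeR adjusted p = 6.1e-04), where 12.1% of all tested genes were called higher. It was lower in Col-S than in Cvi-0 controls by a log2 difference of -2.40 (SE 0.58, adjusted p = 0.0025), where 10.8% were called lower. ST2A stood at -1.39 (adjusted p = 0.13) for Cvi-0 against Col-0 and at 1.62 (adjusted p = 0.0748) for Col-S against Cvi-0. DESeq2 called ST2A in both (adjusted p = 0.0312 and 0.0115). An edgeR fit of the compared groups alone called it for Col-S against Cvi-0 (adjusted p = 0.0120). JOX4 was also called lower by DESeq2 in Cvi-0 than in Col-0 (-3.57, adjusted p = 0.0287), with 5 counts over the Cvi-0 controls. DESeq2 called 2699 of all tested genes lower in Cvi-0 than in Col-0, and 2294 higher in Col-S than in Cvi-0. Between Col-S and Col-0 controls edgeR called none of the 8 genes, 0 had an unadjusted p below 0.05 and DESeq2 called 0, where 0.805% of all tested genes were called either way.

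In the order of mean levels, the 3 ozone groups stood above the 3 control groups for every tested member other than CYP94B1, whose Cvi-0 control mean ranked above the Col-0 ozone mean. For CYP94C1, JOX2, JOX3, JOX4, IAR3 and ILL6 the order was Cvi-0, Col-S and Col-0 after ozone. Of the neighbours in these orders, the fit without the block called the step from Col-S to Col-0 for CYP94C1 and no step from Cvi-0 to Col-S for these 6 genes; the block added the JOX4 step from Col-S to Col-0 and the CYP94C1 and JOX4 steps from Cvi-0 to Col-S. ST2A was ordered Col-S, Cvi-0 and Col-0 after ozone with neither step called.

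Within the ozone groups the tested members mostly ranked the libraries alike. Replicate 3 held the highest value of the group for 8 of the 8 tested genes in Col-0 ozone, 7 in Cvi-0 ozone and 7 in Col-S ozone. The lowest value was held by replicate 1 for 5 and replicate 2 for 3 of the 8 in Col-0 ozone, and by replicate 2 for 7 in Cvi-0 ozone and 6 in Col-S ozone. On the first principal component of all tested genes, ozone libraries stood above control libraries. There replicate 3 was also highest: 89.8 beside 79.9 and 54.5 in Col-0 ozone, and 144.5 beside 143.1 and 141.2 in Cvi-0 ozone. In Col-S ozone it stood at 138.2, beside 124.7 and 108.1. How often all tested genes ranked the libraries this way was not counted. Among Col-0 controls replicate 2 was the highest for 5 of the 8, and on the first principal component of all tested genes it stood at -92.1, beside -121.3 and -115.7 for the other Col-0 controls. The part of these library differences in the results was not tested beyond leaving each library out.

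Over all 18 libraries the pattern of ILL6 was closest to that of OPR3, the reductase of jasmonic acid synthesis. Likeness was the root mean square difference of log2 CPM after each gene's own mean was removed, and it was 0.204 for this pair. The 16731 candidates were tested genes outside the members that passed a cutoff on mean level. IAR3 was closest to NAC102, a NAC-family transcription factor, at 0.237, and to AtIPCS2 at 0.244. The nearest gene to CYP94C1 was HEMA2, a glutamyl-tRNA reductase, at 0.437, and that to JOX2 was AT1G61370 at 0.370. The nearest genes to JOX4 and JOX3, whose control counts were low, lay farther off, with GLR2.5 at 0.701 and NATA1 at 0.735. Those to ST2A and CYP94B1 were AT1G76590 at 0.482 and AT3G09480 at 0.447. The part of count noise in these distances was not tested. Among the members JOX2 and IAR3 were the closest pair at 0.413, and CYP94B1 and JOX4 the farthest at 3.01. The libraries share the ozone treatment and the genotypes, so these values are descriptions.

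Promoter sequence is shown for 4 members that differ in response: CYP94C1 and JOX4, whose response differed most between Cvi-0 and Col-0, IAR3, the most abundant member, and JOX1, which was nearly silent. The 250 bases before the RefSeq start (TAIR10.1 genome) are given on the strand of the gene, 5′ to 3′, from chr2:11809029-11809278 (plus) for CYP94C1, chr2:16014992-16015241 (minus) for JOX4, chr1:19199101-19199350 (plus) for IAR3 and chr3:3503667-3503916 (plus) for JOX1. Capitals mark, on either strand, the G-box variant in CYP94C1, the W-box core in JOX4, and the G-box and the TGA-factor motif in JOX1, all spelled out after the sequences.
CYP94C1: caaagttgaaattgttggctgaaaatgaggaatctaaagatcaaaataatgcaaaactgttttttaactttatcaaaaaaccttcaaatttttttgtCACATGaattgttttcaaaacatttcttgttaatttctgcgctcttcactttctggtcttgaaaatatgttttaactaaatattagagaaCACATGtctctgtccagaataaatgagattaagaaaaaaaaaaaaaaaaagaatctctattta
JOX4: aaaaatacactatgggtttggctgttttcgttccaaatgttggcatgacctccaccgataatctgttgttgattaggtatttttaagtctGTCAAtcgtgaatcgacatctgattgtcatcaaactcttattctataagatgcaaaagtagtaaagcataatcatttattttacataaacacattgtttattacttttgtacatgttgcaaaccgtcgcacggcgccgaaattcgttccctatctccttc
IAR3: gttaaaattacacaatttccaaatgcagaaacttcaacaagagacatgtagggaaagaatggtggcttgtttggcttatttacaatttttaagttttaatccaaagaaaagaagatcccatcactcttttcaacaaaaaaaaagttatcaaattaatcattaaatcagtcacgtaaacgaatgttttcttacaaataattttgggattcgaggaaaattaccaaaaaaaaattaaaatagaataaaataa
JOX1: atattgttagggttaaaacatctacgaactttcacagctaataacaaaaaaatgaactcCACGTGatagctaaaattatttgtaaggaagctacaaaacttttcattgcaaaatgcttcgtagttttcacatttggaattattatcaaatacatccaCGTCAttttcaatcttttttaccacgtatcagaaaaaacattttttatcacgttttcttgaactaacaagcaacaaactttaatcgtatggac

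Motifs were searched on both strands from 250 bases before to 50 bases after the start. The G-box CACGTG, which MYC factors bind, was in 1 of the 10 members, the nearly silent JOX1, and in 7.68% of all 27437 promoters. The variant CACATG was in CYP94C1, at 153 and 63 bases before the start, and in JOX2, against 12.9% of all promoters. The 250 bases before the JOX2 start overlapped the neighbouring gene AT5G05598. Whether the match lay within that gene was not checked. For WRKY factors, only the W-box form TTGACC was searched in full, and it was in 0 members and 14.2% of promoters. The form TTGACT was not counted by itself. The core TTGAC, which both forms hold, was in CYP94B1, CYP94C1 and JOX4, against 50.5% of promoters. TGACG, for TGA factors, was in CYP94B1 and JOX1, against 23.1%, and in CYP94B1 a TGACG overlapped a TTGAC. The GCC-box GCCGCC was in 0 members and 2.57% of promoters. CYP94B3, JOX3, ST2A, IAR3 and ILL6 held none of these letters in their windows. Of these, all but the barely detected CYP94B3 were called higher after ozone in each genotype. A link between motifs and response was not tested.

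Because Col-S is a near-isogenic line, the origin of each member's neighbourhood was described from expression. Genes were termed informative if edgeR called them between Cvi-0 and Col-0 controls with a log2 difference of at least 1 in either direction. It was counted how many of them had a Col-S control mean closer to that of Cvi-0. Over the genome this was 237 of 2261 genes, or 10.5%. Within 0.5 Mb of JOX3 it was 11 of 13 genes (84.6%), around CYP94B3 21 of 28 (75.0%) and around JOX4 8 of 15 (53.3%). The other 7 members had between 0 of 11, around CYP94B1, and 2 of 12, around ST2A. CYP94C1, the member that was called between Col-S and Col-0 after ozone, had 1 of 11. These shares come from expression and not from genotype calls.

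**Figure D4:**
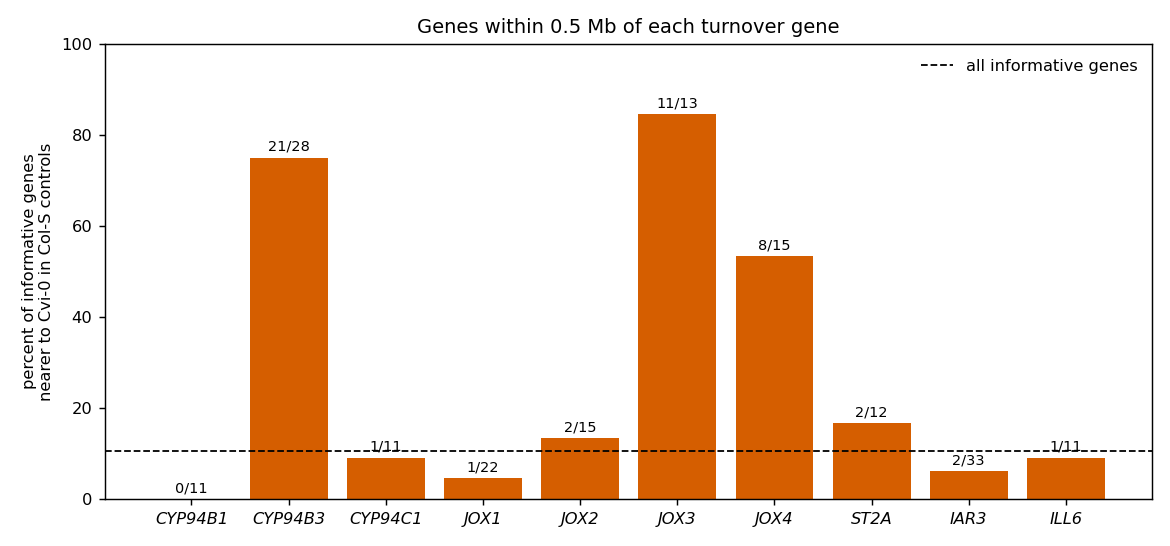
Percent of informative genes within 0.5 Mb of each turnover gene whose Col-S control mean lay closer to the Cvi-0 mean, with the numbers of genes above the bars and the 10.5% of all informative genes as a dashed line. JOX3, CYP94B3 and JOX4 stand at 53.3% to 84.6%, and the other 7 genes at 0% to 16.7%.

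Genes of other steps of the pathway were called in both directions. Over all tested genes 57.1% were called either way in Col-0, 70.4% in Cvi-0 and 68.2% in Col-S. Of 16 genes of jasmonate synthesis, 8 rose and 2 fell in Col-0, 9 rose and 4 fell in Cvi-0, and 9 rose and 2 fell in Col-S, with a median log2 fold change of 0.99, 1.01 and 0.98. ACX1, an acyl-CoA oxidase of the final chain shortening, rose by 3.57, 2.78 and 3.49 on the log2 scale in Col-0, Cvi-0 and Col-S. AOC3, an allene oxide cyclase, rose by 5.97, 7.41 and 7.68, and the lipoxygenase LOX4 by 5.23, 6.22 and 6.58. OPCL1, a CoA ligase of the precursor chain, rose by 2.62, 2.60 and 3.04. OPR3, the nearest match of ILL6, rose by 2.97, 4.81 and 4.07.

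Of 18 JAZ repressors and signalling genes, 12 rose and 1 fell in Col-0, 14 rose and 2 fell in Cvi-0, and 13 rose and 1 fell in Col-S, with medians of 1.09, 1.57 and 1.58. The repressor gene JAZ1 rose by 5.50, 6.51 and 6.76, JAZ5 by 4.77, 6.91 and 6.17, and JAZ6 by 2.75, 2.50 and 2.84. MYC4, a transcription factor, fell by 1.85, 2.79 and 2.18. Of 7 jasmonate-responsive marker genes 6 were tested, of which 3 rose and 0 fell in Col-0, 1 rose and 2 fell in Cvi-0, and 1 rose and 3 fell in Col-S, with medians of 0.41, -0.40 and -0.29. TAT3, a tyrosine aminotransferase, rose in each by 3.92, 7.44 and 6.60. CORI3, a cystine lyase, had log2 values of 0.07 (edgeR adjusted p = 0.86) in Col-0, -2.00 in Cvi-0 and -1.50 in Col-S, the last 2 called lower. PDF1.2a, a plant defensin, rose in Col-0 by 2.30 and had uncalled values of 1.45 and 0.87 in Cvi-0 and Col-S. VSP2, a vegetative storage protein, fell in Col-S by 1.29 and had uncalled values of -0.16 in Col-0 and -0.84 in Cvi-0.

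Of 10 relatives of the members, 9 were tested, of which 6 rose and 1 fell in Col-0, 4 rose and 4 fell in Cvi-0, and 6 rose and 1 fell in Col-S, with medians of 0.76, -0.07 and 0.78. ILL5, whose protein was 83.9% identical to IAR3, rose from 0.115 ± 0.010 to 3.02 ± 0.677 CPM in Col-0, from 0.689 ± 0.262 to 20.6 ± 5.44 CPM in Cvi-0 and from 0.211 ± 0.043 to 3.42 ± 0.628 CPM in Col-S (SD, n = 3). The coding sequences of IAR3 and ILL5 shared a run of at most 44 bases. The amidohydrolase relatives ILL3 and ILR1 rose by 1.09, 1.58 and 1.78 and by 0.76, 1.02 and 1.03. CYP94D2, another CYP94 gene, fell by 1.08, 2.07 and 1.45 on the log2 scale. JMT, the methyltransferase that turns jasmonic acid into its methyl ester, rose by 1.73 in Col-0 and 1.81 in Col-S and had a log2 fold change of -1.07 (edgeR adjusted p = 0.016) in Cvi-0. Its response differed between Cvi-0 and Col-0 by -2.80 (adjusted p = 0.0014), and JMT was singled out after its values were seen.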

How the data were processed

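RNA of pooled rosettes was sequenced from TruSeq RNA v2 libraries, per the labels' protocols. HTSeq, SAMtools, TopHat2 and FastQC are listed in the submitters' processing notes, with TAIR10 as the build, which derives from Col-0; the sources used here give no versions, strandedness or treatment of reads with several matches. Raw counts per gene were deposited, with no normalization by the authors. The 18 libraries carried between 14905841 and 26171613 counts, and intervals of count ratios cover counting error only. From the counts, edgeR 4.0.16 in R 4.3.3 (TMM, filterByExpr, robust quasi-likelihood test, 1 fit over the 6 groups, Benjamini-Hochberg adjustment over 20622 genes) gave 12 comparisons; a call needed an adjusted p below 0.05. It was also run on simulated counts, for the Col-0 ozone response alone. That run did not cover the comparisons between genotypes or changes in genes with low control levels. DESeq2 1.42.0, other size factors, no filter, fits on the compared groups, a replicate block and leaving out each library were alternatives. The p-values measure the spread between pooled libraries.

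Replicate numbers from the labels were taken as pairs where every correlation of same-numbered deviations was over 0.1. That held for 6 of the 9 pairs of groups compared (0.104 to 0.448): the 3 control comparisons, the Col-S ozone response, and Col-S against Col-0 and Cvi-0 after ozone. Col-0 and Cvi-0 after ozone missed the cutoff at 0.081 to 0.202, although their differently numbered libraries correlated less, at -0.135 to -0.025. Missing the cutoff therefore does not show that the libraries were unpaired. Levels per kb used the union of exons in RefSeq TAIR10.1. All 27998 genes found in both annotations had the same chromosome and strand, and 21.5% the same start and end; gene coordinates are those of the files. Protein identity is over aligned residues of a global alignment (Biopython 1.88). Motif windows ran from 250 bases before to 50 after the RefSeq start.

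The members and lists were chosen with earlier results of these data known. All 10 members were named; from each list up to 4 called genes were named by smallest p over the ozone responses, and OPR3, ST2B and JMT were named beside them, and for each member the genes of the most like pattern.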

Additional observations from a re-analysis of the deposited data

Results flagged for a closer look

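The ozone responses of CYP94C1 and JOX4 differed between Cvi-0 and Col-0 by the test of the difference itself. For CYP94C1 the response was larger in Cvi-0 by 2.54 on the log2 scale (SE 0.69, edgeR adjusted p = 0.0173), with every Cvi-0 ozone library above every Col-0 ozone library and overlapping control levels. Without Col-0 control replicate 3 it was 2.04 (adjusted p = 0.0915). For JOX4 it was larger by 7.04 (SE 2.79, adjusted p = 0.0182), with 5 counts over the Cvi-0 controls and 1 Col-0 control library at 2.58 CPM. Without that library the difference was 3.86 (adjusted p = 0.537), while the difference of JOX4 between Cvi-0 and Col-0 after ozone stayed at 3.42 (adjusted p = 4e-04).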

How the results depend on the processing

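The ozone response of the 8 tested genes kept its direction and call in each genotype under every alternative run. Of 473 values under the alternatives other than leaving a library out, 460 kept direction and call, 13 gained a call and 0 changed sign. The replicate block raised the number of members called from 0 to 1 for the larger response in Col-S than in Col-0 (CYP94C1, 1.72, adjusted p = 0.0149), from 1 to 2 for Col-S above Col-0 after ozone and from 1 to 3 for Col-S below Cvi-0 after ozone; ILL6 differed in response between Cvi-0 and Col-0 by 1.27 (adjusted p = 0.0249). For all tested genes the block raised these 3 counts too, from 558 to 1001, 2081 to 2673 and 2828 to 3590, in that order. For the larger response in Cvi-0 than in Col-0 it raised the count from 2267 to 2775. In each interaction at least 1 pair of its groups did not pair by number, and the block changed no other call of the members. DESeq2 raised the count from 2 to 3 for the larger response in Cvi-0 than in Col-0 (ILL6, also called with DESeq2 size factors and in a fit of the compared groups alone), from 0 to 1 for the larger response in Col-S than in Col-0, from 0 to 2 for lower Cvi-0 than Col-0 controls (JOX4 and ST2A) and from 0 to 1 for higher Col-S than Cvi-0 controls (ST2A), as did a fit of the compared groups alone (1). For all tested genes DESeq2 moved these counts from 2267 to 2785, 558 to 1124, 2392 to 2699 and 2104 to 2294, in that order. The cause was not tested.

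Leaving out 1 library at a time, the counts ranged from 1 to 3 for the larger response in Cvi-0 than in Col-0, from 5 to 6 for Cvi-0 above Col-0 after ozone (IAR3, without Col-0 ozone replicate 3), from 0 to 1 for lower Cvi-0 than Col-0 controls and for higher Col-S than Cvi-0 controls, from 1 to 3 for Col-S above Col-0 after ozone and from 1 to 3 for Col-S below Cvi-0 after ozone. The last 2 reached 3 without Col-0 ozone replicate 3 or Col-S ozone replicate 2, and without Col-S ozone replicate 3.

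Over these fits 41 values changed sign, all of them uncalled log2 differences, with these ranges. In controls, Col-S minus Col-0 ran from -0.39 to 0.42 for CYP94C1, -0.17 to 0.16 for ILL6, -0.43 to 0.29 for JOX2, -0.11 to 2.11 for JOX3, -2.40 to 1.34 for JOX4 and -0.12 to 0.95 for ST2A. Col-S minus Cvi-0 ran from -0.35 to 0.49 for CYP94C1 and -0.23 to 0.044 for ILL6, and Cvi-0 minus Col-0 from -0.56 to 0.47 for CYP94C1, -0.19 to 0.16 for IAR3 and -0.046 to 0.24 for ILL6. The difference of responses, Col-S minus Col-0, ran from -0.76 to 0.44 for CYP94B1, -2.06 to 0.37 for JOX3 and -0.62 to 0.44 for ST2A, and Col-S minus Cvi-0 from -0.17 to 1.03 for CYP94B1 and -0.45 to 0.15 for JOX2. After ozone, Col-S minus Col-0 ran from -0.047 to 1.16 for CYP94B1 and -0.55 to 0.98 for JOX3, Col-S minus Cvi-0 from -0.33 to 0.041 for IAR3, -0.99 to 0.014 for JOX3 and -0.14 to 0.94 for ST2A, and Cvi-0 minus Col-0 from -0.025 to 1.37 for JOX3 and -0.62 to 0.46 for ST2A.

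With windows of 0.25 and 1 Mb, the share of informative genes nearer to Cvi-0 was 72.7% and 57.9% around CYP94B3, 60.0% and 67.7% around JOX3, and 33.3% and 42.9% around JOX4. Depth limits CYP94B3 and JOX1, the control levels of JOX3 and JOX4, and the Col-0 and Col-S control levels of CYP94B1.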
